A study of Mus musculus with 15 samples.

Results

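Zinc finger protein genes of mouse muscle stem cells were followed through tissue dissociation. The members were the genes whose listed name begins with Zfp, Zkscan or Zscan and a number, without the Zfp36 family, whose CCCH fingers bind RNA. This left 170 of the 8059 genes in the deposited table, after 3 genes of that family were taken out. The rule used names only and no measured value. Muscle stem cells, or satellite cells, lie beside the fibre and rebuild it after injury. The dissociated groups are T15, T30, T60, T90 and T120, and they are set against T0, labelled as intact tissue. The numbers carry no unit in the labels and were read as minutes. Every group is labelled as fixed, with PFA by the labels' protocols, and tissue was dissociated with collagenase and dispase. Strain, age, genotype and sort gate of the bulk cells were not found in the labels. The table holds 22 libraries with letters A to D, 3 at T30, 3 at T90 and 4 at each other time point. Nothing states that the letters are separate animals, so each p-value measures the spread between these libraries, which may be technical.

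Most of these genes encode C2H2 zinc finger proteins, in which each finger folds around a zinc ion held by a pair of cysteines and a pair of histidines and reads a few bases of DNA. Many carry a KRAB domain, which recruits the corepressor TRIM28 and, through it, the histone methyltransferase SETDB1 and HP1 proteins, and such proteins silence retrotransposons and imprinted loci. Others carry a SCAN domain, through which these proteins pair with each other, and some bind RNA or take part in ribosome assembly rather than repression.

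Translated coding sequences of the GENCODE annotation were available for 168 members. A KRAB pattern was found in 54 of them, a SCAN pattern in 15, both in 4, and neither in 103. These are pattern counts and miss some domains: Zkscan8 and Zkscan1, whose names record both domains, matched the SCAN pattern alone, and Zkscan3 matched neither. The median number of C2H2 fingers was 9, with a range of 0 to 37. Zfp142 had the most, and the 4 members with 0 by the pattern were Zfp330, Zfp503, Zfp703 and Zfp839. The members lay on 20 chromosomes, with 37 of them on chromosome 7. Their median exon length was 5955 bases, against 5313 bases for the other listed genes. Their median level, per kb of exon over all libraries, was 6.94 CPM (counts scaled to the library total), against 10.1 CPM per kb for the other listed genes. The KRAB pattern members were lower still, at a median of 5.41 CPM per kb, and 55.6% of them fell below the level that splits off the lowest 25% of all listed genes.

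The counts on listed genes totalled 2974294 to 10482407 per library at T0 to T30 and 8647622 to 27826437 at T60 to T120. All 10 satellite cell markers were listed, at a summed level of 5508 to 6503 CPM at T120, 6791 to 6976 CPM at T90 and 6255 to 7056 CPM at T60, against 4506 to 5313 CPM at T0. A background density was measured as the median counts per kb of exon over Muc16, Mroh2a, Pclo, Ryr3 and Csmd1, long genes of other tissues. Of 22 genes chosen for this, only these 5 were listed. Weak genes are not listed, so the density may be too high. In CPM per kb it ran from 1.36 to 4.32 in T0 libraries, 0.735 to 3.89 in T15 libraries and 1.87 to 6.68 in T30 libraries. It ran from 0.0854 to 0.156 in T60 libraries, 0.131 to 0.64 in T90 libraries and 0.0817 to 1.11 in T120 libraries. It was thus higher in every T0 and T30 library than in any T60 or T90 library. At T0 this density would make up a median of 33.2% of a zinc finger gene's level, against 2.29% at T60 and 7.98% at T120, so changes were also computed after subtracting it. Among the marker lists of other cell types, 5 of 6 endothelial genes were listed and summed to 321 to 599 CPM at T120, against 149 to 240 CPM at T0. All 5 smooth muscle and pericyte genes were listed and summed to 452 to 640 CPM at T120, against 186 to 294 CPM at T0. The 6 of 8 myofibre genes listed summed to 189 to 257 CPM at T60, against 404 to 593 CPM at T0. The 2 of 5 fibro-adipogenic genes summed to 899 to 1167 CPM at T120, against 790 to 1523 CPM at T0. Of 6 immune genes, Cd68 alone was listed, at 11.3 to 25.2 CPM at T120 and 9.44 to 11.9 CPM at T0. Of the chosen glial, tenocyte and erythroid genes 0 could be examined. The part of these markers in the results below was not tested. In bulk samples fewer cells of a type and less RNA per cell cannot be told apart.

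The starts of 4 genes are shown because they had the largest rises (Zfp948 and Zfp655) and the largest falls (Zkscan8 and Zfp316) at T120. The stretches are 250 bases before to 50 after the RefSeq gene start on GRCm38.p6, at chr17:21566728-21567027 (plus strand), chr5:145231492-145231791 (plus strand), chr13:21531065-21531364 (minus strand) and chr5:143269973-143270272 (minus strand). Capitals mark the ETS family motif CCGGAAGT on either strand.
Zfp948: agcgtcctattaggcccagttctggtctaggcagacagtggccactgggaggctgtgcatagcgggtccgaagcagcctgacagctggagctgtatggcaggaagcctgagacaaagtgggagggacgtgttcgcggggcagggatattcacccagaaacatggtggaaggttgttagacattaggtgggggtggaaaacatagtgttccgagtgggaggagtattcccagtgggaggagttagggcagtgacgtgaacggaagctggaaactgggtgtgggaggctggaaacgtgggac
Zfp655: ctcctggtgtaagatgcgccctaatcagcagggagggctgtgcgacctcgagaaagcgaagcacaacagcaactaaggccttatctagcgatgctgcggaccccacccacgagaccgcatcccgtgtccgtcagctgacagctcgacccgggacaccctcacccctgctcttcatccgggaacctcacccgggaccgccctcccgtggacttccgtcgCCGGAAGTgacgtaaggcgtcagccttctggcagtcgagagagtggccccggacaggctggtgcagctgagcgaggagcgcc
Zkscan8: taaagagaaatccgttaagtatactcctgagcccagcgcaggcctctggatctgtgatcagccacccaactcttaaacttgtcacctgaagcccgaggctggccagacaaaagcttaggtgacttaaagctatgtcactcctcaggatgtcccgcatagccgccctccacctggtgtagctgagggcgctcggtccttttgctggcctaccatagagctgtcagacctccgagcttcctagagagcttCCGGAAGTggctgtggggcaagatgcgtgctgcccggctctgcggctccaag
Zfp316: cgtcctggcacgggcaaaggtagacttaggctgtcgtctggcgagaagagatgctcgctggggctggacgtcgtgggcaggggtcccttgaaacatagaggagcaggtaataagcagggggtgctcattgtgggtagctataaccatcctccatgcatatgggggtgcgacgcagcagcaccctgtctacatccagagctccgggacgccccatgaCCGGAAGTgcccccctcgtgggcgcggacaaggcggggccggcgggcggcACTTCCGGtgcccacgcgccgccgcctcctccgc

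The ETS letters began 32 bases before the start in Zfp655, 2 bases before it in Zkscan8, and 34 bases before and 16 bases after it in Zfp316. They were absent from the Zfp948 window, so they stood in starts of genes that rose and of genes that fell. RefSeq promoters matched 134 of the 170 members. CCGGAAGT stood in 13.4% of these, against 3.89% of all 32817 promoters of the same length. The other motifs, each searched on both strands, were nearer the share of all promoters. The AP-1 motif TGANTCA stood in 5.22% of member promoters and 7.81% of all, the E-box CACGTG in 8.96% and 7.15%, and the EGR1 motif GCGNGGGCG in 6.72% and 5.56%. The cAMP response element TGACGTCA stood in 4.48% of member promoters and 1.79% of all. CCGGAAGT was found in 5 of 24 matched promoters of members that rose at T120 and in 9 of 79 of members that fell. Member promoters held a mean of 19.6 CpG dinucleotides, against 12.4 over all promoters. The set of all promoters includes genes that are not listed here, and shares over the listed genes were not computed. The higher share of CCGGAAGT can thus not be read as particular to zinc finger genes. A match describes letters and is not evidence of binding.

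In the first 30 minutes few zinc finger genes were called. At T15 edgeR called 0 members either way against T0, beside 0.658% of all listed genes up and 0.0124% down. At an unadjusted p under 0.05, 1 member was higher and 1 lower, and DESeq2 and limma-voom called 0. At T30, 1 member rose and 2 fell, beside 3.66% of all listed genes up and 1.34% down. Zfp703, a nuclear corepressor that lacks the usual C2H2 array, had 42.3, 43.6 and 41.1 CPM at T30, against 19.8, 25.7, 31.3 and 29.7 CPM at T0. Each T30 library was thus above each T0 library, with a log2 fold change of 0.67 ± 0.15 (standard error, SE; edgeR adjusted p = 0.00863). About 13.5% of its exon length overlaps Gm45371 on the other strand, and no source used here says whether counting used strand.

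Zfp207, also called BuGZ, a microtubule-binding protein of the spindle, was the larger of the 2 falls at T30. It had 123.8, 149.3 and 200.3 CPM at T30, against 239.2, 301.8, 257.6 and 258.6 CPM at T0, and the groups did not overlap. The log2 fold change was -0.74 ± 0.17 (edgeR adjusted p = 0.012). Background density was 6.68 and 5.46 CPM per kb in the 2 lower T30 libraries and 1.87 CPM per kb in the higher one, and after subtracting it the log2 fold change was -0.58 (edgeR adjusted p = 0.0077). By T120 the same gene stood above T0, at 464 ± 67.2 CPM at T120 and 264 ± 26.6 CPM at T0 (SD, n = 4 each), a log2 fold change of 0.81 ± 0.16 (edgeR adjusted p = 9.13e-05). Zfp397, a C2H2 protein, fell at T30 to 63.9 ± 4.68 CPM at T30 (SD, n = 3), against 85.7 ± 4.49 CPM at T0 (SD, n = 4). Its log2 fold change was -0.42 ± 0.11 (edgeR adjusted p = 0.0319). After background subtraction 2 members rose and 10 fell at T30, beside 6.33% of all genes up and 2.31% down. Without the 5 libraries of highest background edgeR called 0 members, beside 1.74% of all genes up and 0.0869% down, with 1 higher and 5 lower at an unadjusted p under 0.05. That leaves 1 library at T30, assumed to vary like the other groups. The calls at T30 thus rest on few libraries.

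From T60 the zinc finger genes were mostly lower than in intact tissue. At T60, 107 members fell and 25 rose, beside 28.3% of all listed genes down and 27.9% up, so that 62.9% of the members fell and 14.7% rose. The median log2 fold change was -0.59 over the members and -0.03 over all listed genes. A fall of at least 2-fold among those called was seen in 58 members and a rise of that size in 6. Among all 8059 listed genes such falls numbered 608 and such rises 764. At T90, 105 members fell and 30 rose, beside 35.0% of all listed genes down and 33.8% up, and the median was -0.74, against -0.05 for all listed genes. At T120, 104 members fell and 34 rose, beside 39.5% down and 37.3% up, and the median was -0.68, against -0.08. These 3 comparisons share their T0 libraries. By the authors' deposited table the members that fell numbered 104 and those that rose 24 at T60, beside 27.0% of all listed genes down and 29.5% up, and 101 fell and 35 rose at T120, beside 38.5% and 38.1%. In a joint test over all time points, 156 of the 170 members (91.8%) were called, beside 85.7% of all listed genes.

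**Figure D1:**
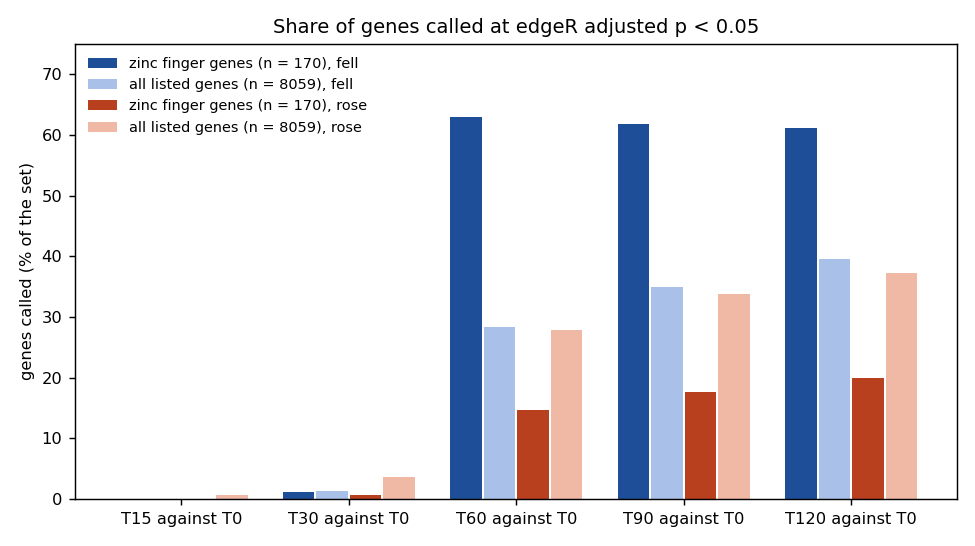
Share of genes called at an edgeR adjusted p under 0.05, in % of the set (vertical axis), for each time point against T0 (horizontal axis), for the 170 zinc finger genes (dark bars) and all 8059 listed genes (pale bars). Falls are blue and rises red: from T60 on 61.2% to 62.9% of the zinc finger genes fell, against 28.3% to 39.5% of all listed genes.

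Counts of genes whose libraries did not overlap gave a like picture. At T60, 110 members lay wholly below T0 and 22 wholly above it, beside 27.7% and 27.1% of all listed genes. At T120, 99 members lay wholly below and 32 wholly above, beside 36.5% and 34.9%. Summed over the members, the level was 10760 ± 282 CPM at T0, 10820 ± 609 CPM at T15 and 10070 ± 83.6 CPM at T30 (SD, n = 4, or 3 at T30). It was 8821 ± 172 CPM at T60, 9345 ± 399 CPM at T90 and 9317 ± 215 CPM at T120 (SD, n = 4, or 3 at T90). Every T60, T90 and T120 library lay below every earlier one. The KRAB pattern members summed to 2721 ± 125 CPM at T0, 1573 ± 114 CPM at T60 and 1453 ± 143 CPM at T120 (SD, n = 4 each).

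Subtracting the background density lowered the number of falls. After subtraction, 62 members fell and 15 rose at T60, beside 15.3% of all genes down and 19.3% up, and 59 of the 107 falls were kept. At T120, 74 fell and 28 rose, beside 26.4% down and 31.0% up, and 72 of the 104 falls were kept. The members' median was then -0.53 at T60 and -0.60 at T120, against 0.06 and 0.09 over all genes. Without the 5 libraries of highest background, 94 members fell and 18 rose at T60, beside 21.0% of all genes down and 25.0% up. That fit leaves out 0A and 0C, so T0 rests on libraries 0B and 0D alone. No member was called in opposite directions by these settings at T60, T90 or T120.

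The falls at T60 were counted by level, and how they ran with level depended on the background. All listed genes were split by mean CPM per kb over all libraries into 4 level bins of equal size, so that a gene that fell also lowered its own bin. In the lowest bin 50 of 61 members fell at T60 (82.0%), against 54.6% of the other listed genes. In the second bin 42 of 64 members fell (65.6%), against 35.5%. In the third 13 of 33 fell (39.4%), against 16.3%, and in the highest 2 of 12 (16.7%), against 4.6%. After background subtraction the members' shares, from the lowest bin to the highest, were 24.6%, 46.9%, 42.4% and 25.0%, against 3.18%, 17.2%, 21.9% and 16.6% of other genes, so the shares did not run down with level. With bins by T0 level, chosen after seeing the data, the members' shares were 55.6%, 75.4%, 55.6% and 53.3%, against 35.8%, 36.4%, 26.3% and 12.2% of other genes. With T0 bins and subtraction, 0 of 36 members fell in the lowest bin by edgeR, against 0.202% of other genes. In the other bins 35.4%, 53.7% and 66.7% of members fell, against 7.34%, 23.1% and 28.3% of other genes. Subtraction took the largest share from genes of low T0 level and set counts under the background to 0. This made falls harder to call in the lowest bins, most of all with T0 bins. After subtraction the shares of those bins cannot show how falls ran with level. All these shares are a description with no test. By exon length, from the shortest bin to the longest, 62.5%, 61.4%, 63.9% and 63.4% of members fell at T60, against 17.6%, 29.0%, 31.7% and 32.1% of other genes.

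**Figure D2:**
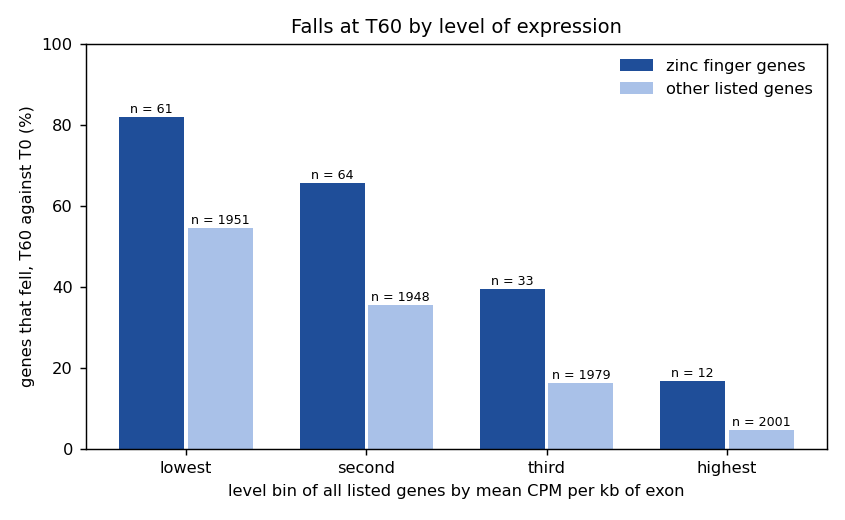
Genes that fell at T60 against T0, in % of the set (vertical axis), by level bin of all listed genes in mean CPM per kb of exon (horizontal axis), for zinc finger genes (dark bars) and other listed genes (pale bars), with the number of genes above each bar. The share runs from 82.0% to 16.7% of zinc finger genes and from 54.6% to 4.6% of other genes, before background subtraction and with levels that include the falls themselves.

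The members were also counted by protein pattern, beside a share of falls over all listed genes of 28.3% (T60), 35.0% (T90) and 39.5% (T120). Among the 54 members with a KRAB pattern, 44 fell (81.5%) and 4 rose at T60, with a median log2 fold change of -0.99. At T90, 42 fell and 4 rose, and at T120 40 fell (74.1%) and 3 rose, with medians of -1.18 and -1.0. Of the 15 with a SCAN pattern, 14 fell (93.3%) and 0 rose at T60 by edgeR, DESeq2 and limma-voom alike. At an unadjusted p under 0.05 all 15 were lower and 0 higher, and at T120 12 fell (80.0%). Of the 103 with neither, 51 fell (49.5%) and 21 rose at T60 and 53 fell (51.5%) and 31 rose at T120, with medians of -0.29 and -0.41. After background subtraction the falls at T60 numbered 22 of 54 KRAB, 9 of 15 SCAN and 34 of 103 other members, beside 15.3% of all listed genes. The KRAB members are also the lower ones in level, and the difference between the pattern classes was not tested. By finger number, 14 of 32 members with 0 to 4 fingers fell at T60 (43.8%), 37 of 58 with 5 to 9 (63.8%), and 54 of 78 with 10 or more (69.2%), beside the same 28.3% of all listed genes.

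**Figure D3:**
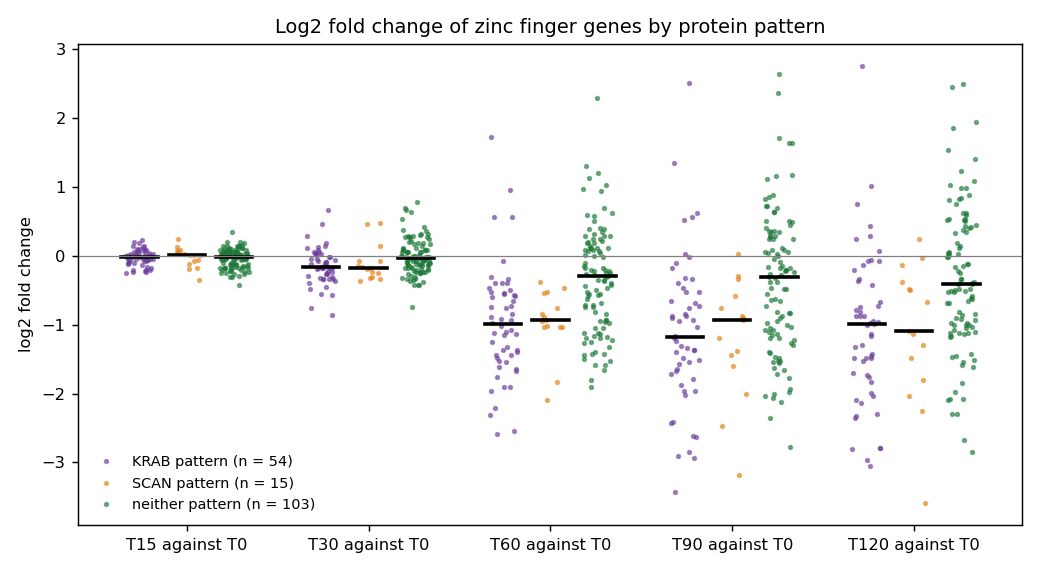
Log2 fold change of each zinc finger gene (points) against T0 at 5 time points, by pattern found in its protein, with the median as a black bar. At T15 and T30 the medians run from -0.18 to 0.01, with single genes further from 0. From T60 the medians of the KRAB and SCAN members are near -1, against -0.29 to -0.41 for members with neither pattern. The 4 members that match both patterns appear in both.

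The largest rise at T120 was in a KRAB zinc finger gene. Zfp948, with 15 fingers, had 21.5, 20.0, 15.6 and 20.5 CPM at T0, 71.5, 63.8, 43.1 and 78.9 CPM at T60, 137.2, 95.2 and 102.7 CPM at T90, and 154.3, 121.9, 117.6 and 137.2 CPM at T120. Each library from T60 on was above each T0 library. Its log2 fold change was 1.72 ± 0.17 at T60 and 2.76 ± 0.18 at T120 (SE; edgeR adjusted p = 4.78e-08 and 1.92e-11). The other KRAB members that rose at T120 were Zfp954, by 1.02, and Zfp747, by 0.75 on the log2 scale. The count of Zfp747 is uncertain, since 34.43% of its 50-base stretches are shared with other genes.

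Zfp655, a zinc finger protein known in human as a partner of the signalling protein VAV, was flat to T30 and then climbed. It had 62.9, 64.9, 61.7 and 64.2 CPM at T0, 134.3, 156.6, 126.9 and 165.0 CPM at T60, and 359.3, 312.1, 361.2 and 405.0 CPM at T120. The 3 groups did not overlap. The log2 fold change was 2.50 ± 0.12 for T120 against T0 and 1.30 ± 0.12 for T120 against T60 (SE; edgeR adjusted p = 8.52e-13 and 2.45e-08). Its gene, at chr5:145231715-145247302 on GRCm38, lies between 2 neighbours of its own family that did not rise. Zkscan5 fell by 1.52 on the log2 scale at T120, and Zscan25 had 0.25, which was not called.

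Zfp131, a transcription factor with a BTB domain, was the steepest at T60. It had 41.6, 48.2, 41.9 and 48.0 CPM at T0, 240.5, 207.1, 177.5 and 264.0 CPM at T60, and 325.1, 187.5, 273.8 and 201.4 CPM at T120. Libraries of T60 and T120 overlapped each other and lay well above T0. Its log2 fold change was 2.30 ± 0.18 at T60 and 2.45 ± 0.18 at T120 (SE; edgeR adjusted p = 8.99e-10 and 1.06e-10), and that of T120 against T60 was 0.15 ± 0.16 (edgeR adjusted p = 0.435).

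Zfp281, a regulator of pluripotency genes in embryonic stem cells, had 85.7, 103.5, 92.4 and 105.6 CPM at T60, against 44.0, 46.1, 43.3 and 43.3 CPM at T0. The groups were far apart, with a log2 fold change of 1.13 ± 0.10 at T60 and 1.54 ± 0.10 at T120 (SE; edgeR adjusted p = 4.81e-09 and 1.77e-11). Zfp703 was higher again at T120, with 101.6, 81.7, 108.9 and 90.1 CPM and a log2 fold change of 1.85 ± 0.14 against T0 (edgeR adjusted p = 2.48e-10). Zfp516, a transcription factor known from brown fat, was highest at T90. It had 105.0, 92.8, 112.6 and 109.7 CPM at T0, 319.6, 344.8 and 366.0 CPM at T90, and 221.1, 195.0, 242.7 and 197.2 CPM at T120. The 3 groups did not overlap, and its log2 fold change was 1.71 ± 0.14 at T90 and 1.03 ± 0.13 at T120 (edgeR adjusted p = 1.69e-09 and 5.59e-07).

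Zfp593, a factor of large ribosomal subunit assembly, was low in CPM. It had 8.8, 11.0, 9.5 and 7.6 CPM at T0 and 18.4, 15.8 and 13.4 CPM at T30, where it was not called. Its levels were 17.3, 18.8, 18.6 and 16.8 CPM at T60 and 34.6, 34.7, 30.2 and 41.0 CPM at T120. Each T30, T60 and T120 library was above each T0 library. The log2 fold change at T120 was 1.94 ± 0.24 (SE; edgeR adjusted p = 2.34e-07). Its count is uncertain, since 77.9% of its exon length overlaps E130218I03Rik on the other strand. Zfp622, another factor of large subunit maturation, rose by 0.98 ± 0.14 on the log2 scale at T120 (SE; edgeR adjusted p = 3.1e-06), a call lost after background subtraction, where the log2 fold change was 1.99 (adjusted p = 0.1).

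**Figure D4:**
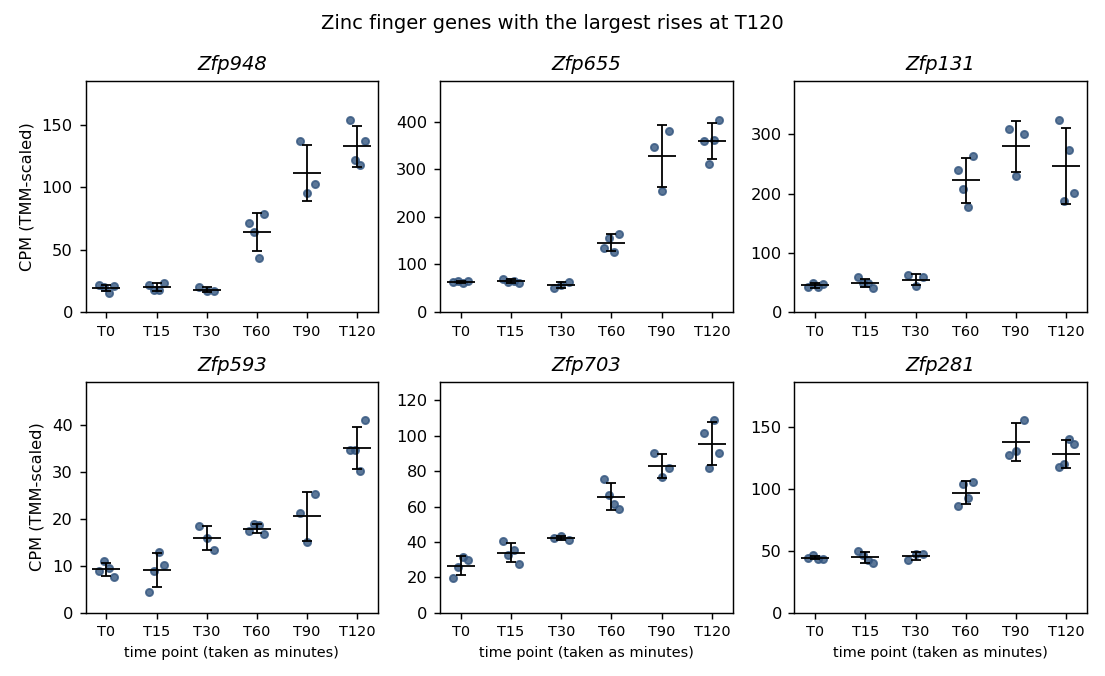
CPM with TMM scaling (vertical axis, from 0) in each library (points) of the 6 zinc finger genes with the largest rises at T120, by time point (horizontal axis), with mean and SD as black bars. Of the 6, Zfp703 was the one called at T30, and all 6 are higher at T120 than in any T0 library.

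The deepest fall at T120 was in Zkscan8, a zinc finger gene of the KRAB and SCAN type. It had 73.2, 61.0, 72.1 and 57.5 CPM at T0, 21.3, 16.6, 24.8 and 11.2 CPM at T60, and 5.4, 9.7, 4.2 and 3.4 CPM at T120. The 3 groups did not overlap. Its log2 fold change was -1.83 ± 0.25 at T60 and -3.59 ± 0.28 at T120 (SE; edgeR adjusted p = 4.38e-06 and 4.03e-10). After background subtraction the value at T60 was -1.75 and no longer called (adjusted p = 0.17), while that at T120 was -4.71 (adjusted p = 0.001).

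Zfp316, a KRAB member, had 43.1, 38.3, 46.1 and 40.4 CPM at T0, 18.8, 14.0, 18.2 and 10.7 CPM at T60, and 4.7, 9.4, 3.1 and 3.7 CPM at T120. Its T30 libraries split, at 61.3, 61.0 and 32.4 CPM, with the higher levels in the libraries of high background. The log2 fold change was -3.05 ± 0.29 at T120 (SE; edgeR adjusted p = 6.02e-09). It was called at T120 after subtraction (adjusted p = 0.00012) and not at T60 (adjusted p = 0.21). Zfp386, another KRAB member, had 89.4, 103.1, 74.3 and 83.6 CPM at T0 and then 54.0, 60.2 and 63.0 CPM at T30, 29.3, 27.6, 28.9 and 17.9 CPM at T60, 17.2, 16.7 and 14.9 CPM at T90, and 10.0, 15.2, 8.6 and 11.4 CPM at T120. Each library from T30 on was below each T0 library. Its log2 fold change was -0.57 ± 0.18 at T30, not called, and -2.97 ± 0.18 at T120 (SE; edgeR adjusted p = 0.0818 and 1.24e-11).

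Other genes were about as low at T60 as at T120. Zfp113, a KRAB member, had 6.4, 9.0, 11.2 and 3.4 CPM at T60, against 40.8, 41.6, 48.9 and 46.6 CPM at T0, with no overlap. The log2 fold change was -2.58 ± 0.32 at T60 and -2.79 ± 0.33 at T120 (SE; edgeR adjusted p = 9.99e-07 and 1.29e-07), and T120 against T60 was not called, at -0.21 ± 0.32 (edgeR adjusted p = 0.578). Zfp866 had 11.8, 11.2, 13.6 and 6.4 CPM at T60, against 61.2, 69.0, 58.7 and 61.6 CPM at T0, a log2 fold change of -2.54 ± 0.25 (edgeR adjusted p = 3.7e-08). It shares 6.9% of its 50-base stretches with another gene and its count is uncertain to that extent. The same holds for Zfp780b, at -2.31 ± 0.24 (edgeR adjusted p = 8.39e-08) with 16.25% shared, which was not called after subtraction (adjusted p = 0.63). Zfp426, a KRAB member, was at -2.21 ± 0.24 (edgeR adjusted p = 1.84e-07). Zscan20, at -2.10 ± 0.35 (edgeR adjusted p = 4.01e-05), was not called at T60 after subtraction (adjusted p = 0.095).

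Zfp839 was at -2.85 ± 0.22 at T120 (SE; edgeR adjusted p = 3.94e-10) and Zfp862-ps, listed as a pseudogene by name, at -2.92 ± 0.18 (edgeR adjusted p = 1.54e-11). Zfp90, a KRAB member with 79.5% of its exon length under Gm26786 on the other strand, was at -2.80 ± 0.30 (edgeR adjusted p = 3.09e-08), and its count is uncertain. All 3 were called at T120 after background subtraction, with adjusted p = 1e-08, 0.00046 and 0.022.

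**Figure D5:**
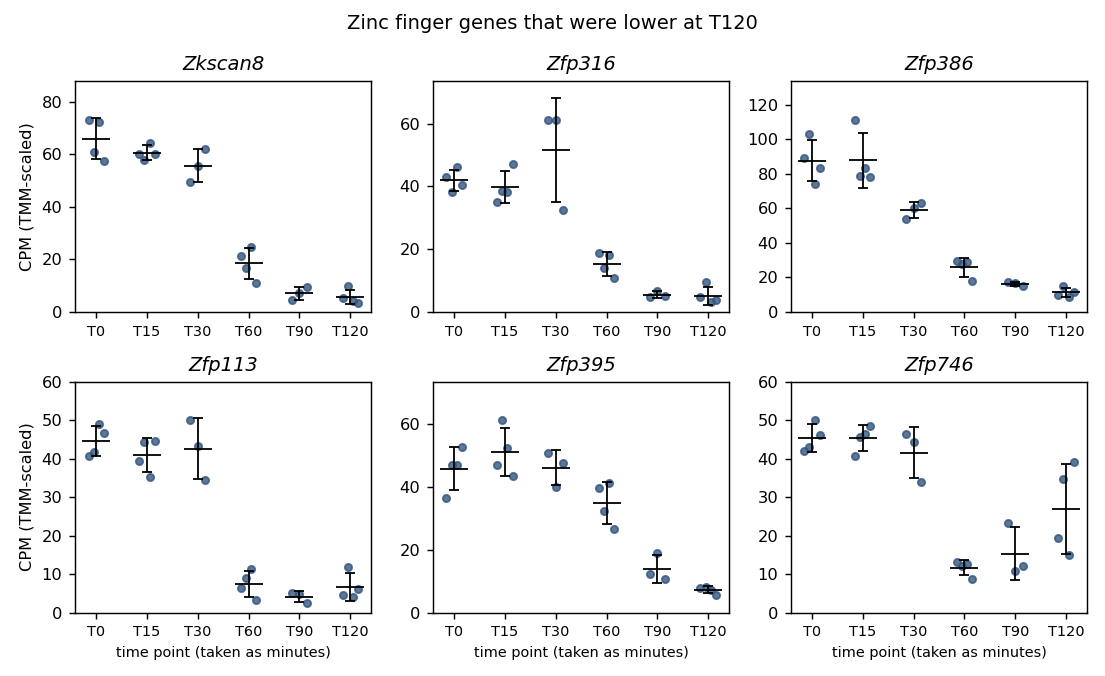
CPM with TMM scaling (vertical axis, from 0) in each library (points) of 6 zinc finger genes that were lower at T120 than at T0, by time point (horizontal axis), with mean and SD as black bars. Zkscan8, Zfp316 and Zfp386 go down past T60, and Zfp395 falls mainly after T60. Zfp113 is low from T60 on, at 5.1, 4.8 and 2.6 CPM at T90, and Zfp746 is higher at T120 than at T60.

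Between T30 and T60, the step at which most calls appeared, 91 members fell and 17 rose, beside 24.5% of all listed genes down and 26.5% up. The median was -0.49, against 0.01 over all listed genes. The largest rises were Zfp131, at 2.02 ± 0.19, and Zfp948, at 1.84 ± 0.19, and the largest falls Zscan20, at -2.58 ± 0.37, and Zfp113, at -2.51 ± 0.33 (SE; edgeR adjusted p = 1.18e-07, 3.41e-07, 1.35e-05 and 5.52e-06). Zscan18 fell by 1.97 on the log2 scale (edgeR adjusted p = 0.000185). The background was most unequal between these groups. With subtraction Zscan20 was not called in this step, at -1.18, and Zfp113 was, at -1.47 (edgeR adjusted p = 0.114 and 0.0225). Zfp131, Zfp948 and Zscan18 stayed called, at 1.85, 2.71 and -2.48 (edgeR adjusted p = 2.12e-05, 5.12e-05 and 0.00126). After subtraction 37 members fell and 12 rose, beside 13.3% of all genes down and 17.4% up, with a median of 0 and 0.25 over all genes. Without the 5 libraries of highest background, 55 fell and 7 rose, beside 6.66% down and 13.4% up.

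From T60 to T120 the members moved both ways. In T120 against T60, 52 rose and 48 fell, beside 28.4% of all listed genes up and 32.0% down, and the median was 0.01, against -0.06 over all listed genes. After background subtraction 26 rose and 28 fell, beside 17.3% up and 17.4% down.

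Beside Zfp655, the largest rises of this step were in Zfp553, Zfp623, Zfp451 and Zfp746. Zfp746, or PARIS, a repressor of the gene of the coactivator PGC-1alpha and a target of Parkin, had 19.4, 34.6, 14.9 and 39.2 CPM at T120, against 13.2, 12.0, 12.5 and 8.8 CPM at T60. The groups did not overlap, with a log2 fold change of 1.22 ± 0.26 (SE; edgeR adjusted p = 0.000425), not called after subtraction, where it was 1.25 (adjusted p = 0.16). Zfp623 had 21.3, 33.0, 17.4 and 30.5 CPM at T120, against 11.7, 12.0, 11.2 and 7.3 CPM at T60, at 1.28 ± 0.22 (edgeR adjusted p = 5.93e-05). Zfp553 had 12.0, 32.7, 13.0 and 24.3 CPM at T120, against 8.1, 8.3, 9.3 and 7.7 CPM at T60, at 1.29 ± 0.35 (edgeR adjusted p = 0.00304). In all 3 genes the libraries 120B and 120D were the higher ones at T120. Library 120B had the highest background of that time point, at 1.11 CPM per kb, and 120D one of 0.119 CPM per kb. Zfp451, a SUMO ligase, was 307 ± 16.0 CPM at T120 and 130 ± 9.49 CPM at T60 (SD, n = 4 each), at 1.24 ± 0.10 (edgeR adjusted p = 1.1e-08).

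The largest fall of this step was in Zfp395, known in human as a hypoxia-induced factor. It had 7.8, 8.1, 7.3 and 5.6 CPM at T120, against 39.4, 32.2, 41.1 and 26.5 CPM at T60, with no overlap and a log2 fold change of -2.29 ± 0.20 (SE; edgeR adjusted p = 1.6e-08). Against T0 it was not called at T60, at -0.39 ± 0.18 (edgeR adjusted p = 0.0703). Zfp292, a large protein of 15 fingers, was 43.4 ± 9.45 CPM at T120 and 122 ± 28.6 CPM at T60 (SD, n = 4 each), at -1.50 ± 0.20 (edgeR adjusted p = 2.09e-06).

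Of 34 members picked for a textbook role, 32 were listed, and Zfp57 and Zscan4 were not analysed here. At T60, 15 of the 32 fell and 8 rose, and at T120 14 fell and 13 rose, beside 28.3% of all listed genes down and 27.9% up at T60 and 39.5% and 37.3% at T120. The medians of the 32 were -0.24 and -0.14, and their counts at T120 were near the share of all genes. Among those known for silencing, Zfp445, which maintains imprints, was 43.9 ± 3.95 CPM at T120 and 96.8 ± 4.53 CPM at T0 (SD, n = 4 each), a log2 fold change of -1.14 ± 0.15 (edgeR adjusted p = 4.67e-07). Zfp809, which silences retroviruses through their primer binding site, fell by 0.82 (SE 0.22; edgeR adjusted p = 0.00235), a call not kept after subtraction, where the log2 fold change was -0.77 (adjusted p = 0.096). Zfp568, a repressor of a placental Igf2 transcript, was among the highest members per kb, at 45.8 CPM per kb at T0. It was not called at T60, at -0.07 ± 0.16 (edgeR adjusted p = 0.732), but was called lower after subtraction, at -0.45 (adjusted p = 0.02). It fell at T120 to 183 ± 27.4 CPM, against 337 ± 49.7 CPM at T0 (SD, n = 4 each), by 0.88 (SE 0.16; edgeR adjusted p = 3.77e-05).

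Factors of muscle, fat and stem cell biology differed among themselves. Zfp106, an RNA-binding protein needed for neuromuscular upkeep, had the highest level per kb of all members, at 55.4 CPM per kb over all libraries, while Zfp780b had the lowest, at 2.02. Zfp106 was 549 ± 13.4 CPM at T120 and 555 ± 92.7 CPM at T0 (SD, n = 4 each), a log2 fold change of -0.02 ± 0.14 (edgeR adjusted p = 0.917), and it was among the 14 members that the joint test over all times did not call. After background subtraction it was called lower, at -0.28 for T90 and -0.32 for T120 against T0 and -0.48 for T60 against T30 (edgeR adjusted p = 0.036, 0.0082 and 0.0024). Its counts overlap Gm26899 over 26.1% of its exon length. Zfp521, a stem cell and antiadipogenic factor, fell by 0.98 (SE 0.13; edgeR adjusted p = 1.14e-06), and Zfp423, a factor of fat cell precursors, by 1.45 (SE 0.38; edgeR adjusted p = 0.00175), a call not kept after subtraction, where it was -1.31 (adjusted p = 0.11). Zfp462 was not called at T120, at -0.22 ± 0.29 (edgeR adjusted p = 0.493). Zkscan3, a repressor of autophagy genes, fell by 1.18 (SE 0.1; edgeR adjusted p = 1.09e-09) and Zkscan1 by 1.09 (SE 0.15; edgeR adjusted p = 1.45e-06).

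Other members with a textbook role were called either way at T120. Of these, Zfp217, a corepressor amplified in human tumours, rose by 1.09 ± 0.11, and Zfp592, a partner of the chromatin reader ZMYND8, by 0.84 ± 0.11 (SE; edgeR adjusted p = 2.42e-08 and 1.1e-06). Zfp687, which belongs to the same complex, was at -0.01 ± 0.10 (edgeR adjusted p = 0.959). Zfp326, which links splicing to RNA polymerase II, rose by 0.34 ± 0.07, Zfp830 by 0.54 ± 0.14, Zfp91, a ubiquitin ligase, by 0.37 ± 0.11, and Zfp335 by 0.40 ± 0.10 (SE; edgeR adjusted p = 0.000194, 0.0012, 0.0041 and 0.000629). The rise of Zfp830 was not called after subtraction, at 0.35 (adjusted p = 0.14). Zfp91 overlaps Cntf on the same strand over 8.4% of its exon length, and 8.48% of its 50-base stretches are shared with other genes. Zfp335 overlaps Pcif1 and Zfp335os on the other strand over 28.3% of its exon length. The counts of both are uncertain. Zfp143, which activates snRNA genes and sits at chromatin loops, fell by 0.49, Zfp148 by 0.51, Zfp384 by 0.38 and Zfp346, which binds double-stranded RNA, by 1.10 on the log2 scale (edgeR adjusted p = 0.0149, 0.000368, 0.00212 and 6.2e-05). The count of Zfp384 is uncertain, since 7.45% of its 50-base stretches are shared with other genes. Without the 5 libraries of highest background Zfp143 was not called, at -0.21 (adjusted p = 0.38). Zfp110, a partner of the neurotrophin receptor p75, fell by 0.67 and Zscan21 by 2.03 on the log2 scale (edgeR adjusted p = 0.00219 and 3.18e-08). Zfp638 and Zfp260 fell at T60, by 0.35 and 0.44, and were not called at T120 (edgeR adjusted p = 0.251 and 0.292). After background subtraction Zfp638 was called lower at T120, at -0.37, and Zfp260 was not, at -0.25 (edgeR adjusted p = 0.0056 and 0.11).

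Zfp410 is known as a dedicated activator of Chd4, which encodes the remodeller of the NuRD complex. Zfp410 was 37.5 ± 2.87 CPM at T120 and 25.9 ± 2.91 CPM at T0 (SD, n = 4 each), a log2 fold change of 0.54 ± 0.10 (edgeR adjusted p = 9.21e-05). The background density alone would give 115% of its level at T0, so this value is uncertain. Chd4 was 1975 ± 153 CPM at T120 and 541 ± 43.5 CPM at T0, a log2 fold change of 1.87 ± 0.10 (edgeR adjusted p = 3.36e-12).

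The genes that KRAB proteins work through were read from a list of 30 cofactor and heterochromatin genes, of which 27 were listed. At T60, 8 rose (29.6%) and 5 fell (18.5%), beside 27.9% of all listed genes up and 28.3% down. At T120, 10 rose (37.0%) and 9 fell (33.3%), beside 37.3% up and 39.5% down, with medians of 0.05 at T60 and 0.11 at T120. Their difference from the zinc finger members was not tested. Trim28 was 170 ± 16.2 CPM at T120 and 109 ± 12.2 CPM at T0 (SD, n = 4 each), a log2 fold change of 0.64 ± 0.12 (SE; edgeR adjusted p = 8.75e-05). Setdb1 fell by 0.53 (SE 0.11; edgeR adjusted p = 0.000153). Among HP1 genes, Cbx3 fell by 0.98 and Cbx5 by 0.71 on the log2 scale (edgeR adjusted p = 4.62e-07 and 2.03e-06), and Cbx1 was at -0.21 (edgeR adjusted p = 0.127). Beside Chd4, the NuRD genes Mta2 and Rbbp7 rose by 1.57 and 1.23 (edgeR adjusted p = 6.74e-11 and 3.21e-09). The histone methyltransferase gene Ehmt1 fell by 1.17 on the log2 scale (edgeR adjusted p = 3.46e-08).

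A list of 77 other C2H2 genes, such as the Klf, Egr, Zbtb and Sp families, had 30 up and 19 down at T60 (39.0% and 24.7%), beside 27.9% up and 28.3% down of all listed genes. At T120 it had 33 up and 25 down (42.9% and 32.5%), beside 37.3% and 39.5%, and its medians were 0.20 and 0.15. At T30 it had 9 up and 2 down, beside 3.66% and 1.34%. The difference between this list and the zinc finger members was not tested.

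In all 50 members had another member within 100000 bases, in 16 runs. Of these members 41 fell at T60, 4 rose and 5 were not called. Of all members 62.9% fell at T60, beside 28.3% of all listed genes down and 27.9% up. The longest run held 8 genes on chromosome 7, from Zfp84 to Zfp146 (chr7:29768552-30169750, GRCm38). At T60 log2 fold changes in it were -1.12 for Zfp84, -1.64 for Zfp790, -0.39 for Zfp27, -1.25 for Zfp74 and -0.44 for Zfp260, all called. Zfp568 and Zfp382 were not called, and Zfp146 rose by 0.25 at T60 and by 0.89 at T120. The run of Zkscan3, Zscan26 and Zkscan8 on chromosome 13 had -1.18, -1.29 and -3.59 at T120, all called. The count of Zscan26 is uncertain, since 23.6% of its exon length overlaps other genes. On chromosome 5, Zkscan1, Zscan21 and Zfp113 had -1.09, -2.03 and -2.79, all called. At T120 39.5% of all listed genes fell. On chromosome 6, the run from Zfp398 to Zfp746 had 6 falls of 6 at T60. Other runs were mixed at T60. On chromosome 7, Zfp628 rose by 0.35 beside falls of Zfp579 and Zfp865. The count of Zfp865 is uncertain, since 28.4% of its exon length overlaps other genes. Zfp444 fell between Zfp787 and Zfp667, which were not called. The share of falls in these runs was not compared with that in all members by a test.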

How the data were processed

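Bulk RNA-seq libraries were made with a stranded total RNA kit from RNA of fixed cells and read as single reads of 65 bases, per the labels' protocols. The deposited table holds whole-number read counts per gene for 22 libraries. It also holds rounded counts that the authors had scaled by library size factors, a score used only to recover those factors (within 5.92 normalized counts), and, per the file headers, log2 fold changes of the authors with their adjusted p-values. The submitters' processing notes name cutadapt 1.11, featureCounts 1.4.5-p3, DESeq2 1.18.1 and the build mm10, without roles. The table holds no gene with a mean normalized count under 98.4, so weak genes were not analysed here, and column totals are not sequencing depth. A total of 194 listed genes carry no name and could not be members.

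Counts were fitted with edgeR 4.0.16 (R 4.3.3), with TMM factors, 1 quasi-likelihood fit over 22 libraries with time point as factor, and Benjamini-Hochberg adjustment over 8059 genes. A gene was called at an adjusted p under 0.05. filterByExpr removed 0 genes, and the common biological coefficient of variation was 0.192. The fit was tested on simulated counts. TMM takes most genes as unchanged, so a shift shared by most genes could not be seen. Levels are TMM-scaled CPM. Names, positions, exon lengths and coding sequences came from GENCODE vM21 (8049 identifiers matched). C2H2, KRAB and SCAN patterns were searched in translated coding sequences, the last 2 in the first 260 residues. Counts were called uncertain where exons overlapped another gene over 10% of their length or over 5% of 50-base stretches were shared; 139 members were clear of both. Promoters came from RefSeq (GRCm38.p6).

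Genes were named by a rule: the 6 largest called changes each way at T60, T90 and T120, up to 5 each way at T15, T30 and in the steps, the highest and lowest member per kb, and members with a textbook role. The members, lists and rule were chosen with earlier results of these data known. Alternatives were RLE and the authors' size factors, DESeq2 1.42.0, limma-voom 3.58.1, other filters, a replicate block, subtraction of the background density or 0.5 of it, and leaving out libraries. The letters of the libraries were checked for pairing and were not taken as pairing them, though the check cannot exclude it. The 9 samples of single nuclei and single cells were not analysed here.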

Additional observations from a re-analysis of the deposited data

Results flagged for a closer look

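A library was marked where its gap to the nearest other library of a 4-library group, as a share of the range, was above Dixon's critical value, which chance gives in about 1 of 20 groups. Of 84 groups examined, 2 were marked, both in Zfp386, a KRAB zinc finger gene. At T15 library 15A had 111 CPM, against 78.1 to 83.1 CPM in the other libraries, a gap of 0.849 of the range. At T60 library 60D had 17.9 CPM, against 27.6 to 29.3 CPM in the others, a gap of 0.852. No explanation was tested.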

How the results depend on the processing

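Background subtraction and the libraries of high background moved the counts of called members most. After subtraction the counts were 62 down and 15 up at T60 against T0 (107 and 25 without it), 37 down at T60 against T30 (91 without it), and 28 down and 26 up at T120 against T60 (48 and 52 without it). Without the 5 libraries of highest background, T60 against T30 had 55 down and 7 up. At T30 against T0, where 1 member rose and 2 fell, rises numbered 2 with DESeq2, 4 with the authors' size factors, 2 after subtraction, 3 after subtracting 0.5 of the background, 0 without the 5 libraries and 0 among members with clear counts, an alternative chosen after seeing the data. Falls at T30 numbered 1 with the authors' size factors, 10 after subtraction of all or 0.5 of the background, 1 with the replicate block and 0 without the 5 libraries. The cause of these moves was not tested.

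Leaving out each library in turn gave 1 to 4 rises and 0 to 3 falls at T30: 4 rises without 30C, 2 rises without 15A, 0 falls without 0B, 30A or 30B, and 1 fall without 15C or 60A. It gave 97 to 110 falls and 20 to 25 rises at T60, and 98 to 106 falls and 33 to 35 rises at T120. Of 51 pairs of libraries with the same letter, 26 had deviations correlated above 0.1, with a median of 0.12, and of 150 pairs with different letters 45 did, with a median of -0.02. Not every pair with the same letter passed 0.1, so the letters were not taken as pairing. Paired libraries could also fail this rule, so pairing was not excluded. With the replicate block no other count of called members moved by over 1.5 times. For named members, 3345 of 3456 alternative values over 108 results kept direction and side of the threshold, 97 lost the call, 14 gained it and 0 reversed. Of the losses, 24 came with background subtraction. Genes under the table's lowest mean level limit what can be seen.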
